A study of Bos taurus with 14 samples.

Results

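The splicing factor genes described here were taken from an array of bovine mammary tissue by their annotated symbols. A probe set, the group of short probes that reports 1 transcript on the array, was included when its single gene symbol began with HNRNP, SRSF, SF3A, SF3B, SNRNP or SNRP, or was PNN or U2AF1. This gave 74 probe sets of 50 genes, out of 24016 probe sets tested, of which 13292 carried exactly 1 symbol and named 9155 genes. No probe set carried U2AF2, HNRNPA1 or SNRPN as its only symbol. By role, 16 probe sets of 14 genes report proteins of the small nuclear ribonucleoproteins (snRNPs), 15 probe sets of 10 genes report the SF3A and SF3B complexes and U2AF1, 16 probe sets of 10 genes report SR proteins (SRSF) and pinin (PNN), and 27 probe sets of 16 genes report heterogeneous nuclear ribonucleoproteins (hnRNPs).

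Splicing removes introns from pre-mRNA. The snRNPs recognise the splice sites and form the catalytic core of the spliceosome, and a ring of Sm proteins surrounds the small nuclear RNA of most of them. U2AF binds the 3′ splice site and SF3A and SF3B, parts of the U2 snRNP, hold it on the branch point. SR proteins mostly promote the use of nearby exons, whereas many hnRNPs repress them, so the balance between these groups bears on which exons a cell joins. Pinin is found both in nuclear speckles, where splicing factors gather, and at desmosomes of epithelial cells, and acts with the exon junction complex. In the mammary gland the weeks before calving are a time of rapid epithelial growth and of preparation for milk secretion.

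The arrays measured mammary tissue biopsied from dry Holstein cows that had been dried off about 60 days before their predicted calving date. At dry-off each cow was assigned at random to short days (SD), with 8 h of light against 16 h without, or to long days (LD), with the light lasting 16 h and the darkness 8 h, and stayed on them until calving. The groups were SD at day -9 relative to calving (4 arrays), LD at day -9 (4 arrays), SD at day -24 (3 arrays) and LD at day -24 (3 arrays), so the later biopsy is day -9 and no group was left in natural light. The RNA had an integrity number above 7.0, and 2 µg of total RNA was copied from its poly(A) tail before hybridisation. The labels do not state whether the same cows gave both biopsies or whether each replicate is a separate cow, so the p-values measure only the spread between these arrays.

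All signals are on the log2 scale, on which a difference of 1 is a doubling. Signals of different probe sets are not compared in level, since each has its own probes. Medians per array ran between 6.43 and 6.61, and arrays correlated with each other at a Pearson r of 0.950 to 0.992. Transcripts that define secretory mammary epithelium were bright on every array, with the 3 probe sets of β-casein (CSN2) at 11.61 to 13.13, α-lactalbumin (LALBA) at 11.71 to 13.38 and the alveolar transcription factor ELF5 at 12.35 to 12.68, while the luminal keratin KRT18 lay at 7.52 to 9.31. The mean signals of the splicing factor probe sets spanned 3.28 to 12.08. 4 of them, reporting HNRNPA0 (Bt.5216.1.S1_at), SNRPD3 (Bt.28460.1.S1_at) and SRSF11 (Bt.16306.1.A1_at and Bt.29115.1.A1_at), averaged below 4.47, the lowest lower quartile of any array, and the other 70 stood above it. The median standard deviation within groups was 0.17 for the splicing factors, against 0.24 over all probe sets tested. In tissue biopsies, fewer cells of a type and less RNA per cell cannot be told apart.

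2 arrays stood apart for the splicing factors, LD day -9 replicate 4 and SD day -24 replicate 3, which earlier results of these data had already set apart. The counts on them are a description with no test. On these 2 arrays 5 probe sets were lower by 0.7 or more than on any other array, which is 6.76% of the splicing factors, against 1.17% of all probe sets. They report HNRNPL, an hnRNP that binds CA-rich RNA (2 probe sets), SRSF1, the best studied SR protein (2 probe sets), and SF3B6, the SF3B subunit that touches the branch point. Without that margin 20 probe sets (27%, against 10.5% of all) were lower on both arrays than on the other 12, among them 7 of 16 for SR proteins and pinin and 8 of 27 for hnRNPs, but 1 of 16 for snRNP proteins. Another 11 probe sets (14.9%, against 10.8% of all) were higher on both arrays than on the other 12. These were 7 probe sets for snRNP proteins (SNRNP25, SNRNP200, SNRPA1, SNRPB, SNRPB2, SNRPC and SNRPD2) and 4 for SF3A1, SF3A3, SF3B5 and U2AF1, with none for SR proteins, pinin or hnRNPs. Some signs of RNA quality moved with these arrays too. The measure was the signal at the 3′ end minus that at the 5′ end of a control transcript. For EIF4E it was 4.60 in LD day -9 replicate 4 and 4.58 in SD day -24 replicate 3. These were the highest of the 14 arrays, but SD day -24 replicate 2, which did not stand apart, had 4.57. For EF1A (-1.56 and -1.37) and GST (-0.69 and -0.43) the 2 arrays were the highest of their day. For GAPDH (1.48 and 1.57) and actin (0.37 and 0.43) they lay inside the range of the other arrays. For cyclophilin the first, at 2.23, lay inside that range and the second, at 2.31, above it. The part of RNA quality in the low and high probe sets was not tested.

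The HNRNPL probe set Bt.21801.2.S1_at read 9.91, 9.95, 10.20 and 10.40 in SD at day -9, 9.95, 10.08, 10.26 and 7.01 in LD at day -9, 10.07, 9.61 and 7.14 in SD at day -24, and 9.85, 10.29 and 10.30 in LD at day -24. The 2 low arrays stand far below the rest, at 7.14 or less, while the other 12 lie at 9.61 or more in all 4 groups. The SRSF1 probe set Bt.864.2.S1_at read 8.23, 8.20, 8.50 and 8.67 in SD at day -9, 8.05, 7.97, 8.95 and 5.95 in LD at day -9, 8.14, 7.68 and 6.01 in SD at day -24, and 8.50, 8.63 and 8.35 in LD at day -24. Here, too, the same 2 arrays are low, and without them the groups overlap at day -9. A further SRSF1 probe set, Bt.864.1.A1_at, did not share the drop. It read 9.39, 9.59, 9.56 and 9.56 in SD at day -9, 9.40, 9.42, 9.62 and 9.31 in LD at day -9, 9.74, 9.89 and 9.51 in SD at day -24, and 9.81, 9.79 and 9.78 in LD at day -24. On it the 2 arrays were also the lowest of their own groups, at 9.31 and 9.51, but the next arrays of those groups read 9.40 and 9.74. SF3B6 gave a drop of about the same kind on Bt.19500.1.S1_at, with 10.17 in LD day -9 replicate 4 and 10.31 in SD day -24 replicate 3, while the other 12 arrays lay at 11.06 and above. Values without these 2 arrays follow below beside the counts and the probe sets that dropped on them.

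**Figure D1:**
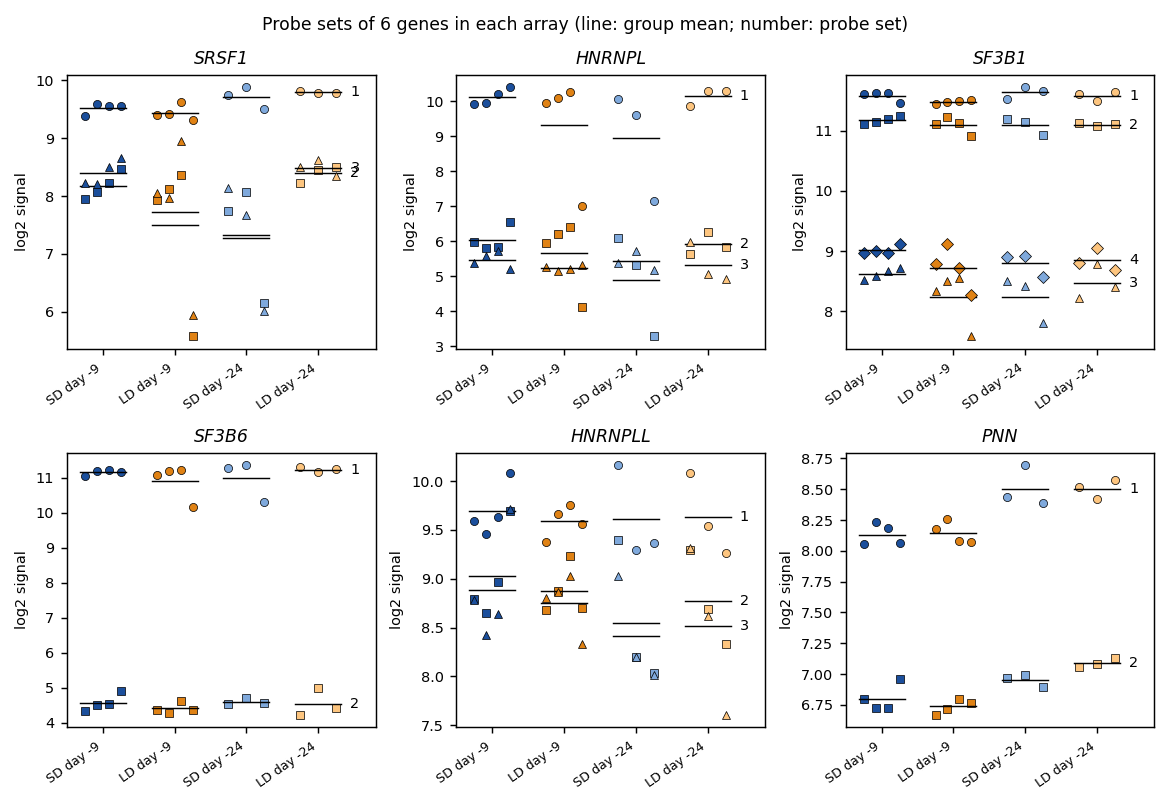
Log2 signal (vertical axis) of every probe set of SRSF1, HNRNPL, SF3B1, SF3B6, HNRNPLL and PNN on the 14 arrays, grouped along the horizontal axis as SD day -9, LD day -9, SD day -24 and LD day -24; points are arrays, lines are group means and the number tells the probe sets of a gene apart. SRSF1, HNRNPL and SF3B6 each show 1 or 2 probe sets with 2 low arrays (HNRNPL at 7.01 and 7.14) and another probe set without them. For SF3B6 that other probe set averaged 4.54 on the other 12 arrays, close to the 4.47 below which probe sets were called dim.

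The mean level of each class, taken as the mean of every probe set's deviation from its own mean over the 14 arrays, showed the same split. For SR proteins and pinin it was -0.58 in LD day -9 replicate 4 and -0.29 in SD day -24 replicate 3, and for hnRNPs -0.34 and -0.29. The snRNP proteins stood at 0.18 and 0.16 on these arrays, the highest of all 14. They were lowest on another pair of arrays, SD day -9 replicate 1 at -0.22 and LD day -24 replicate 1 at -0.21, where the SF3 and U2AF class was lowest as well, at -0.16 and -0.15. By group, SR proteins and pinin averaged 0.04 ± 0.07 in SD at day -9 (SD over 4 arrays), -0.13 ± 0.30 in LD at day -9 (4 arrays), -0.05 ± 0.21 in SD at day -24 (3 arrays) and 0.17 ± 0.06 in LD at day -24 (3 arrays). The spread in LD at day -9 and SD at day -24 comes from the 2 arrays named.

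**Figure D2:**
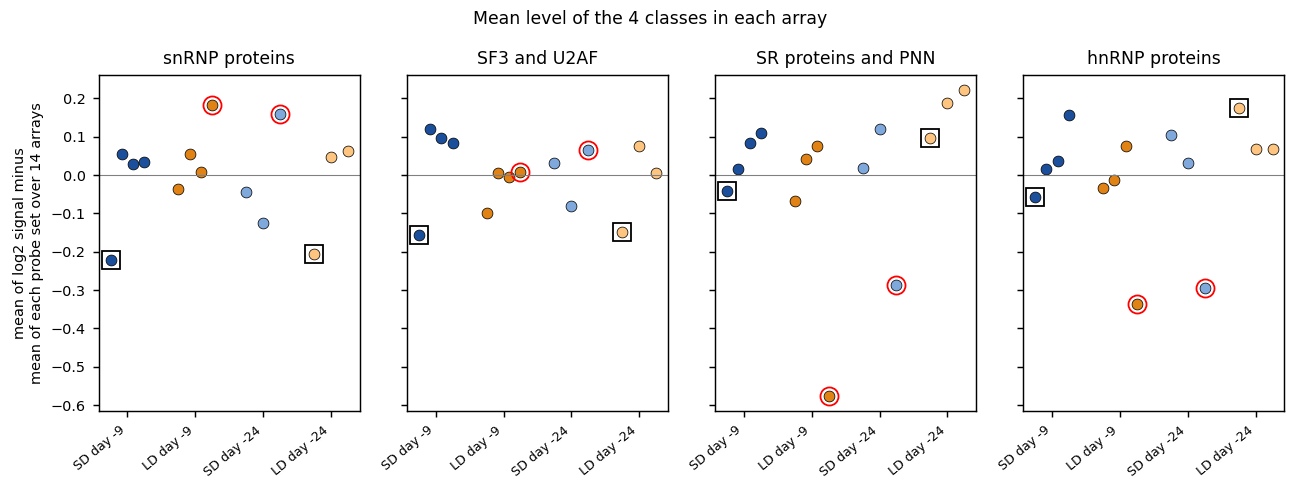
Mean level of the 4 classes on each array (vertical axis, log2 signal minus each probe set's mean over 14 arrays), grouped by photoperiod and day along the horizontal axis; red circles mark LD day -9 replicate 4 and SD day -24 replicate 3, black squares mark SD day -9 replicate 1 and LD day -24 replicate 1. The circled arrays are low for SR proteins and PNN (-0.58 and -0.29) and for hnRNPs, and high for snRNP proteins (0.18 and 0.16), where the squared arrays are low.

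The first comparison was of the days, day -9 minus day -24, averaged over both photoperiods. No splicing factor passed an adjusted p of 0.05 in limma's moderated test, and neither did any probe set on the array (0 of 24016, 0%). The smallest adjusted p of a splicing factor was 0.636. At an unadjusted p under 0.05, 13 splicing factor probe sets of 12 genes were lower at day -9, which is 17.6% of the 74, against 4.08% of all probe sets tested. 2 were higher, both of SNRNP35, which is 2.7% against 3.64% of all. The lower ones were 7 for hnRNPs (HNRNPA0, HNRNPDL, HNRNPF, HNRNPH2, HNRNPK, HNRNPR and HNRNPUL1), 5 for SR proteins and pinin (SRSF1, SRSF3, SRSF10 and PNN on 2 probe sets) and 1 for SNRNP40. In 4 of them, PNN, HNRNPH2, HNRNPUL1 and SRSF3, all 8 arrays of day -9 lay below all 6 arrays of day -24, which is 5.41% of the splicing factors against 0.229% of all probe sets. The median over the 74 was -0.02, with 29 above 0 and 45 below, against a median of 0.00 over all probe sets, 49.8% of which were below 0. With every array centred on its own median the split became 24 above and 50 below, while the median of all probe sets moved to -0.04.

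Without the 2 arrays that stood apart, 15 splicing factor probe sets were lower at an unadjusted p under 0.05 (20.3%, against 4.81% of all) and 3 were higher (4.05%, against 4.08%). Over the arrays left out singly the count of lower ones ran between 10 and 16 (13.5% to 21.6%, against 3.18% to 5.75% of all). The folds are small, from 1.12 to 1.29 on the linear scale for the 13, and the range between the classes is given next by role.

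Among the snRNP proteins the median day difference was 0.07, with 11 of 16 probe sets above 0. This median includes LD day -24 replicate 1, where the mean snRNP level was -0.21, which raises the difference. It also includes SD day -9 replicate 1, at -0.22, which lowers it. The class median without either array is not given here, so how far its sign rests on them was not tested. SNRNP35, a protein of the U11/U12 snRNP that serves the rare minor introns, was higher at day -9 on both its probe sets. Bt.5294.2.S1_at read 7.29, 6.89, 7.05 and 7.31 in SD at day -9 and 7.06, 7.50, 7.04 and 7.47 in LD at day -9, against 6.94, 6.77 and 6.89 in SD at day -24 and 6.81, 7.02 and 6.85 in LD at day -24. Bt.5294.1.A1_at read 7.32, 7.42, 7.18 and 7.49 in SD at day -9 and 7.23, 7.52, 7.38 and 7.74 in LD at day -9, against 7.10, 7.15 and 7.27 in SD at day -24 and 6.87, 7.31 and 7.07 in LD at day -24. On both, the day -9 arrays reach higher than any day -24 array but the groups overlap. The differences were 0.32 (95% interval 0.09 to 0.55, limma unadjusted p = 0.00912) and 0.28 (0.07 to 0.50, unadjusted p = 0.0148), with adjusted p = 0.636 for both. SNRNP25, another protein of the minor spliceosome, differed by 0.14 (-0.16 to 0.44).

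SNRNP40, a U5 snRNP protein, ran the other way. It read 9.93, 10.09, 10.12 and 9.96 in SD at day -9 and 9.94, 9.94, 9.97 and 9.81 in LD at day -9, against 10.18, 10.22 and 10.35 in SD at day -24 and 10.37, 9.98 and 10.39 in LD at day -24. Only LD day -24 replicate 2, at 9.98, falls inside the range of day -9, and the difference was -0.28 (-0.46 to -0.10, adjusted p = 0.636). SNRNP27, of the tri-snRNP, lay just outside the unadjusted threshold at -0.24 (unadjusted p = 0.0503). SNRNP70, which binds U1 RNA, differed by 0.09 (-0.18 to 0.36), and the Sm proteins SNRPB, SNRPD2 and SNRPD3 (Bt.2840.1.S1_at) by 0.08, 0.02 and 0.08. The Sm protein SNRPG lay on the other side of 0, at -0.13 (-0.33 to 0.06), and in LD all its arrays of day -9 were below those of day -24.

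The SF3 complexes and U2AF1 had a median of 0.04 with 8 of 15 probe sets above 0, and none reached an unadjusted p under 0.05. SF3B1, the scaffold of SF3B, had 4 probe sets with differences of -0.08, 0.04, 0.08 and 0.05. The largest of these 4 intervals, for Bt.27429.1.S1_at, ran between -0.28 and 0.44, a width to which the 2 low arrays contribute (7.58 in LD day -9 replicate 4 and 7.80 in SD day -24 replicate 3, against 8.22 or more on the other 12). Without them it ran between -0.15 and 0.31. U2AF1, which reads the AG at the end of the intron, differed by 0.15 (-0.13 to 0.43).

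SR proteins and pinin had 13 of 16 probe sets below 0. Pinin gave the smallest p of all 74. Its probe set Bt.22769.1.S1_at read 8.05, 8.23, 8.18 and 8.06 in SD at day -9 and 8.18, 8.26, 8.08 and 8.08 in LD at day -9, against 8.43, 8.69 and 8.39 in SD at day -24 and 8.52, 8.42 and 8.58 in LD at day -24. The days do not overlap in either photoperiod. It averaged 8.14 ± 0.08 at day -9 (SD, 8 arrays) and 8.51 ± 0.12 at day -24 (SD, 6 arrays), a difference of -0.37 (-0.53 to -0.20), or 1.29-fold lower, at an unadjusted p = 0.000364 and adjusted p = 0.636. The difference was -0.37 in SD cows and -0.36 in LD cows, and -0.38 without the 2 arrays that stood apart. The other pinin probe set, Bt.4875.1.S1_s_at, differed by -0.25 (-0.40 to -0.11), and there SD day -9 replicate 4 at 6.96 overlapped SD day -24 replicate 3 at 6.89.

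SRSF3, the smallest SR protein, which also couples splicing to mRNA export, read 10.98, 11.15, 11.16 and 10.97 in SD at day -9 and 11.13, 11.00, 11.05 and 11.05 in LD at day -9, against 11.25, 11.46 and 11.19 in SD at day -24 and 11.33, 11.27 and 11.39 in LD at day -24. Again all day -9 arrays lie below all day -24 arrays. The difference was -0.25 (-0.41 to -0.10), or 1.19-fold lower, with adjusted p = 0.636, and it was -0.28 without the 2 arrays. SRSF1 was lower by 0.27 (interval -0.45 to -0.09) on Bt.864.1.A1_at. Its other probe sets differed by -0.02 (-0.90 to 0.86) and 0.18 (-0.71 to 1.07), intervals that would hold that value. With the 2 low arrays left out they had 0.01 (-0.26 to 0.28) and 0.16 (-0.24 to 0.56), and Bt.864.1.A1_at -0.30 (-0.47 to -0.13). SRSF10, an SR protein that represses splicing when dephosphorylated, had -0.16 (-0.32 to -0.01). Of the remaining SR proteins, SRSF5, SRSF6, SRSF7 and SRSF9 lay between -0.18 and -0.08, all with intervals across 0.

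The hnRNPs had a median of -0.07 with 20 of 27 probe sets below 0. HNRNPH2, which binds runs of G, varied least within groups of all 74. It read 9.09, 9.09, 9.08 and 9.18 in SD at day -9 and 9.10, 9.17, 9.11 and 9.10 in LD at day -9, against 9.41, 9.39 and 9.31 in SD at day -24 and 9.57, 9.34 and 9.46 in LD at day -24. The days were separate in both photoperiods, with 9.11 ± 0.04 at day -9 (SD, 8 arrays) and 9.41 ± 0.09 at day -24 (SD, 6 arrays). The difference was -0.30 (-0.44 to -0.16), or 1.23-fold lower, at an unadjusted p = 0.000514 and adjusted p = 0.636. Its relatives HNRNPH1 and HNRNPH3 differed by -0.11 and 0.05, with intervals across 0.

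HNRNPA0, which binds AU-rich RNA, read 9.93, 10.15, 9.89 and 9.85 in SD at day -9 and 9.95, 9.72, 9.88 and 9.83 in LD at day -9 on Bt.21790.1.S1_at, against 9.99, 10.35 and 10.17 in SD at day -24 and 10.15, 10.26 and 10.31 in LD at day -24. SD day -9 replicate 2, at 10.15, is the only array of that day above the lowest of day -24. The difference was -0.30 (-0.48 to -0.13). HNRNPUL1 on Bt.21035.2.S1_at averaged 11.06 ± 0.06 at day -9 (SD, 8 arrays), with values of 10.95 to 11.13, and 11.28 ± 0.13 at day -24 (SD, 6 arrays), with values of 11.13 to 11.43. Its days separate only in the third decimal, and the difference was -0.22 (-0.38 to -0.05). HNRNPR differed by -0.25 (-0.41 to -0.08), HNRNPDL by -0.27 (-0.46 to -0.08) on Bt.23277.3.S1_a_at, and HNRNPF by -0.21 (-0.38 to -0.03) on Bt.23314.1.A1_s_at. HNRNPK, which binds C-rich RNA, differed by -0.20 (-0.36 to -0.03) and -0.12 (-0.27 to 0.03) on its pair of probe sets. All of these carry adjusted p = 0.636 except the second HNRNPK probe set, whose interval crosses 0. The other probe set of HNRNPDL differed by -0.08 and that of HNRNPF by -0.07. Over the 3 probe sets of HNRNPUL1 the difference ran between -0.22 and -0.02.

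**Figure D3:**
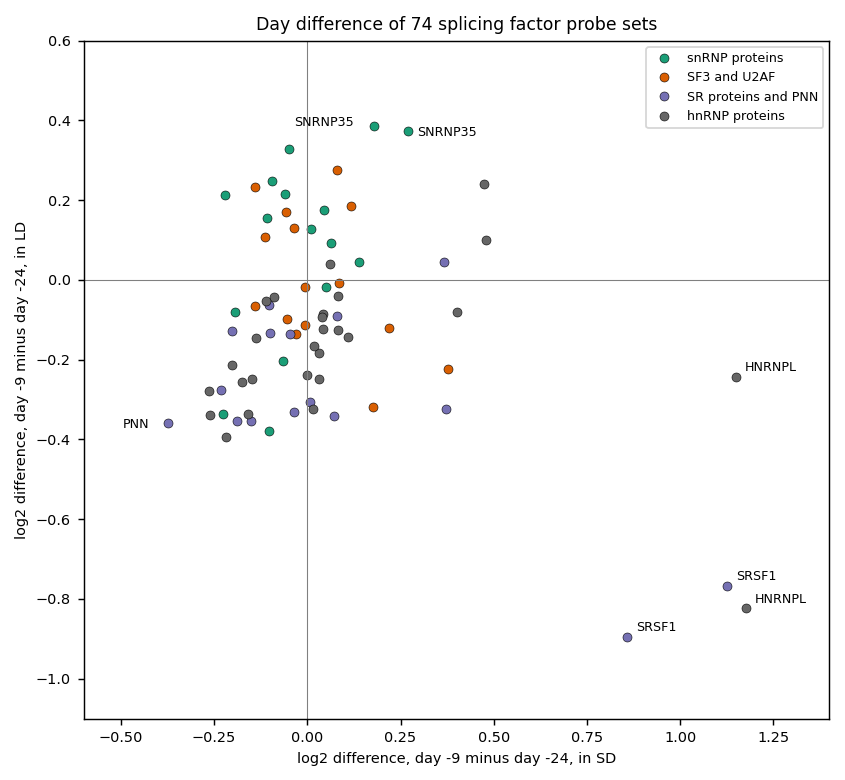
Day -9 minus day -24 difference of the 74 probe sets (log2) in SD cows (horizontal axis) and in LD cows (vertical axis), coloured by class; lines mark 0. PNN lies at -0.37 and -0.36, and the snRNP proteins lie mostly above the horizontal line. 4 probe sets of SRSF1 and HNRNPL lie far right and below 0 in LD, with values that rest in part on 2 arrays.

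Within each photoperiod the day difference was read from the same limma fit. The LD and SD differences come from different arrays, but their p-values and intervals share the spread estimated over all 14. In LD cows 16 splicing factor probe sets of 14 genes were lower at day -9 at an unadjusted p under 0.05 (21.6%, against 3.86% of all), and both SNRNP35 probe sets were higher (2.7%, against 3.61%). None passed the adjusted threshold (0% of all probe sets did), and the smallest adjusted p was 0.651. The lower probe sets were those of HNRNPA0, HNRNPDL, HNRNPH2, HNRNPK (both), HNRNPR, HNRNPU, HNRNPUL1, PNN (both), SNRNP27, SNRNP40, SRSF1, SRSF3, SRSF5 and SRSF11. In LD 21 of the 74 were above 0 and 53 below, with a median of -0.12 against 0.00 over all probe sets, 49.5% of which were below 0. Centring the arrays made this 18 above and 56 below, and shifted all probe sets by -0.05. The count of 16 depends on single arrays: it was 9 (12.2%) when either replicate 1 or replicate 3 of LD day -24 was left out, against 2.32% and 3.85% of all, and 12 (16.2%, against 3.35%) when LD day -9 replicate 4 was. For every other single array it was between 12 and 16 (16.2% to 21.6%, against 3.09% to 6.16%). Without both arrays that stood apart it was 12 (16.2%, against 3.85%), and none were higher (2.61% of all). With single arrays left out the count of higher ones ran between 0 and 2, and it was 0 without LD day -24 replicate 1.

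By class, the LD median was -0.31 for SR proteins and pinin (15 of 16 below 0), -0.17 for hnRNPs (24 of 27 below 0), -0.02 for SF3 and U2AF and 0.14 for snRNP proteins (11 of 16 above 0). Without the 2 arrays that stood apart these medians were -0.16, -0.08, -0.00 and 0.08 in the same order. The snRNP median also includes LD day -24 replicate 1, where the mean snRNP level was -0.21, against 0.05 and 0.06 on the other arrays of that group. Class medians without that array are not given here. 18 probe sets had all LD arrays of day -9 below all LD arrays of day -24 (24.3%, against 4.66% of all), and 1, of SNRNP35, had them above (1.35%, against 4.32%). HNRNPU, a nuclear scaffold protein, differed by -0.32 (-0.57 to -0.08) and SRSF11 by -0.31 (-0.54 to -0.07) on Bt.9041.1.S1_at.

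In SD cows 3 probe sets, of PNN, HNRNPH2 and SRSF3, were lower at day -9 at an unadjusted p under 0.05 (4.05%, against 1.93% of all) and none were higher (2.63% of all). None passed the adjusted threshold (0% of all), with 0.970 as the smallest adjusted p. The differences were -0.37 (-0.61 to -0.14) for PNN, -0.26 (-0.46 to -0.06) for HNRNPH2 and -0.23 (-0.46 to -0.01) for SRSF3. The 74 were spread evenly, with 36 above 0 and 38 below and a median of -0.00, against -0.01 for all probe sets, 46.7% of which were above 0. All 4 arrays of day -9 lay below all 3 of day -24 in 7 probe sets (9.46%, against 2.94% of all), of HNRNPF, HNRNPH2, HNRNPUL1, PNN, SNRNP40, SRSF3 and SRSF10. They lay above in 4 (5.41%, against 2.96%), which were 2 of SF3B1 and those of SRSF1 and SRSF4. In each of those 4, SD day -24 replicate 3 was the lowest SD array of that day. Without the 2 arrays that stood apart 4 were lower (5.41%, against 1.84%) and 1 higher (1.35%, against 1.84%). Leaving out SD day -24 replicate 1 gave 5 lower (6.76%, against 2.59% of all) and 3 higher (4.05%, against 4.72%), and leaving out LD day -24 replicate 2 gave 5 lower (6.76%, against 1.80%). The higher count was 5 (6.76%, against 3.85%) when LD day -9 replicate 4 was left out. It was 1 (1.35%, against 1.16% to 2.99%) for either of the other SD arrays of day -24 and for SD day -9 replicate 2.

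**Figure D4:**
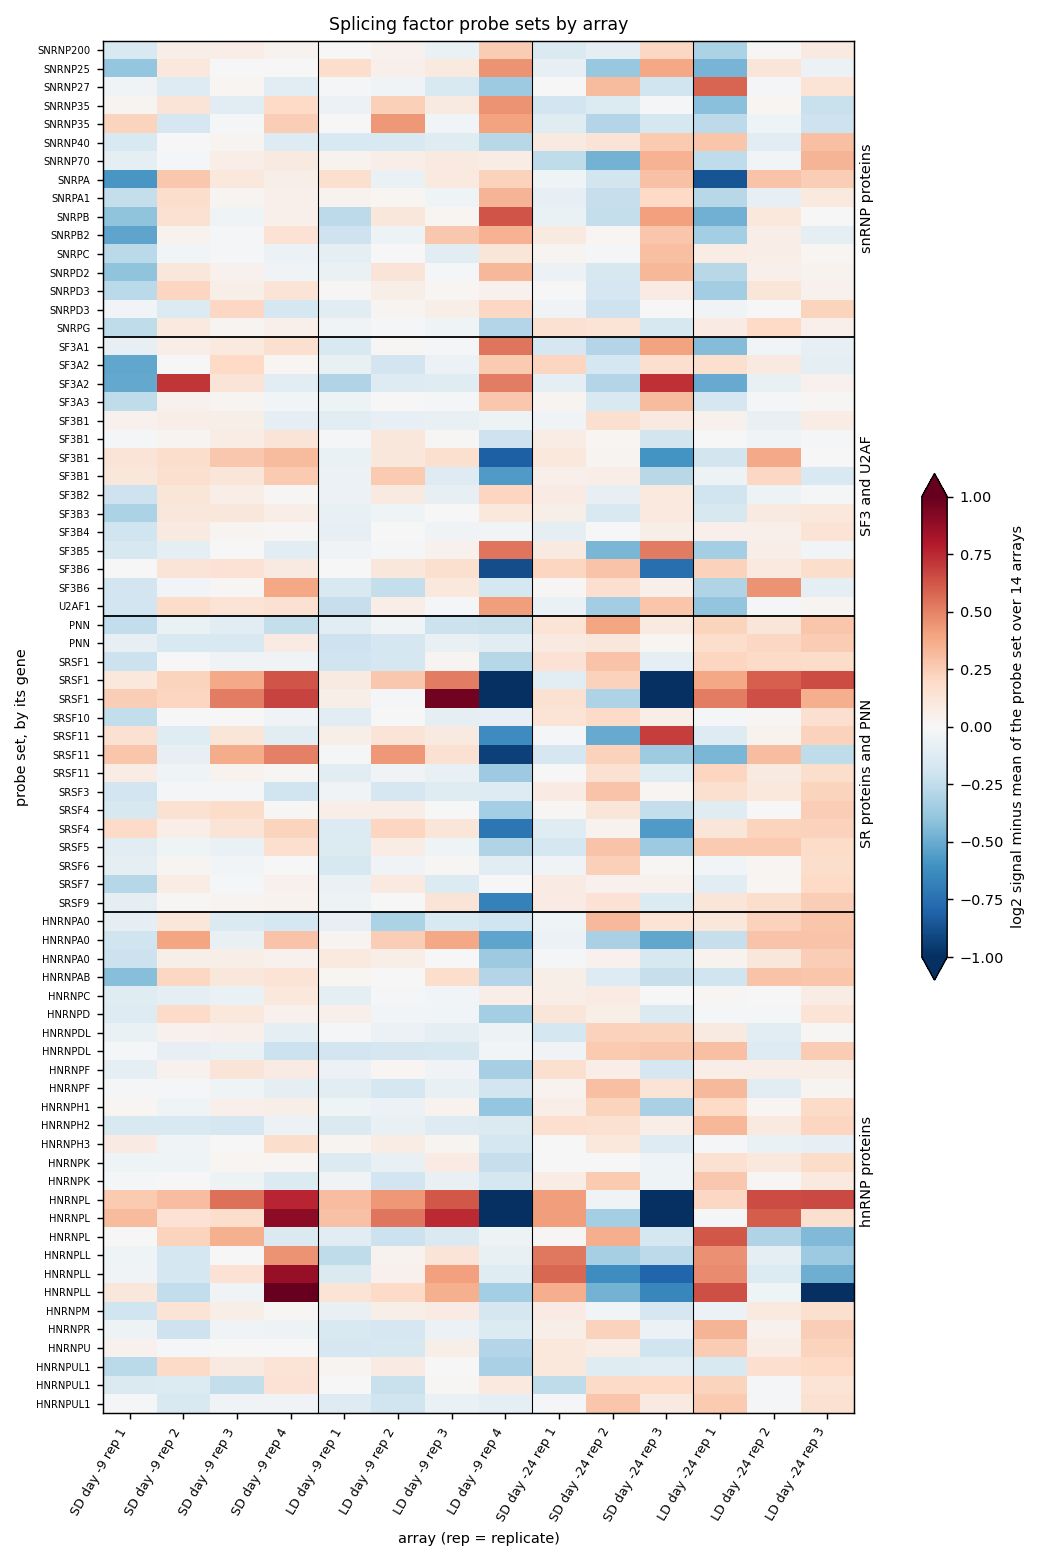
Log2 signal of the 74 splicing factor probe sets (vertical axis, sorted by class) on the 14 arrays (horizontal axis, SD day -9, LD day -9, SD day -24, LD day -24), as the deviation from each probe set's mean over 14 arrays. LD day -9 replicate 4 and SD day -24 replicate 3 stand out as columns with low SR protein and hnRNP probe sets and high snRNP probe sets.

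Whether the light regime was accompanied by another level of these genes was asked as SD minus LD at each day and averaged over days. With all 14 arrays no splicing factor reached an unadjusted p under 0.05 in any of these 3 comparisons, where 2.77% of all probe sets did at day -9, 2.42% at day -24 and 1.94% on average, and no probe set on the array passed the adjusted threshold (0% in each). At day -24 this depended on the arrays. Without LD day -9 replicate 4, 4 splicing factor probe sets were lower in SD at that p (5.41%, against 2.07% of all), without it and SD day -24 replicate 3 it was 2 (2.7%, against 0.929%), and without these and both LD day -24 replicate 1 and SD day -9 replicate 1 it was 7 (9.46%, against 4.06%). Every other alternative gave 0 to 3 lower and 0 or 1 higher at day -24, and at most 2 in either direction at day -9 or on average. None passed the adjusted threshold. The smallest adjusted p of a splicing factor with all arrays was 0.984 at day -9 and 1 in the other comparisons. The averaged differences had a median of -0.00, and 34 were above 0 and 40 below, where 52.2% of all probe sets were above 0. The intervals of the averaged values give the range of differences that these arrays leave possible. PNN (Bt.22769.1.S1_at) had -0.01 (-0.17 to 0.16) and HNRNPK had 0.02 (-0.15 to 0.18) on Bt.3183.3.A1_at. SNRNP70 had -0.10 (-0.37 to 0.17), U2AF1 0.05 (-0.24 to 0.33) and SRSF1 0.00 (-0.17 to 0.18) on Bt.864.1.A1_at. For the SRSF1 probe set Bt.864.2.S1_at the interval ran between -1.17 and 0.62, and between -0.65 and 0.15 without the 2 arrays that stood apart. The averaged differences of smallest p were those of SNRPD3 (Bt.28460.1.S1_at, a dim probe set) at -0.11, SF3B1 (Bt.10359.1.S1_at) at 0.08, SRSF5 at -0.12, HNRNPL (Bt.25701.1.A1_at) at 0.17, HNRNPA0 (Bt.5216.1.S1_at, dim) at -0.17 and HNRNPF (Bt.23314.1.A1_s_at) at 0.09.

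At day -9, 51 of the 74 were above 0 and 23 below, with a median of 0.07, against 0.00 over all probe sets, of which 50.2% were above 0. In no probe set did the SD and LD arrays of day -9 separate (1.34% of all did with SD higher and 1.12% with SD lower). The hnRNPs had 24 of 27 above 0 (median 0.08), SR proteins and pinin 14 of 16 (median 0.09), and the snRNP proteins 4 of 16 (median -0.08). These medians include LD day -9 replicate 4, and without the 2 arrays that stood apart they were 0.04, 0.03 and -0.02. The snRNP median also includes SD day -9 replicate 1, where the mean snRNP level was -0.22, against 0.03 to 0.05 on the other arrays of its group. The median without that array is not given here. The smallest p belonged to SF3B1, with 0.29 (-0.06 to 0.63) on Bt.27429.2.A1_at and 0.38 (-0.09 to 0.85) on Bt.27429.1.S1_at, followed by SRSF11 at 0.16, SRSF4 at 0.28, SNRNP25 at -0.26 and HNRNPU at 0.15. With both low arrays left out the SF3B1 values were 0.14 and 0.16, SRSF11 had 0.09, SRSF4 0.09, SNRNP25 -0.18 and HNRNPU 0.09.

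At day -24, 32 of the 74 were above 0 and 42 below, with a median of -0.03, against 0.01 over all probe sets, of which 47.3% were below 0. All 3 SD arrays lay below all 3 LD arrays in 5 probe sets, of HNRNPK, PNN, SRSF1 (2) and SRSF4, which is 6.76% against 3.02% of all, and above in none (2.64% of all). SRSF5 differed by -0.32 (-0.67 to 0.02), SRSF1 by -1.22 (-2.57 to 0.13) on Bt.864.2.S1_at and -1.07 (-2.40 to 0.26) on Bt.864.2.S1_a_at, SRSF4 by -0.41 (-0.87 to 0.05) on Bt.28464.2.S1_at, HNRNPA0 by -0.41 on its dim probe set and HNRNPU by -0.19. The SRSF1 values depend in part on SD day -24 replicate 3. Without it and LD day -9 replicate 4 they were -0.59 (-1.20 to 0.03) and -0.49 (-0.90 to -0.08, limma unadjusted p = 0.0245, adjusted p = 1), and on Bt.864.2.S1_at the other SD arrays of that day, at 8.14 and 7.68, still lay below every LD array of that day. At day -9 the same probe sets had 0.67 and 0.68 with these arrays and 0.08 and 0.04 without them. HNRNPL on Bt.21801.2.S1_at had -1.21 at day -24 and 0.79 at day -9, against -0.31 and 0.02 without the 2 arrays.

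**Figure D5:**
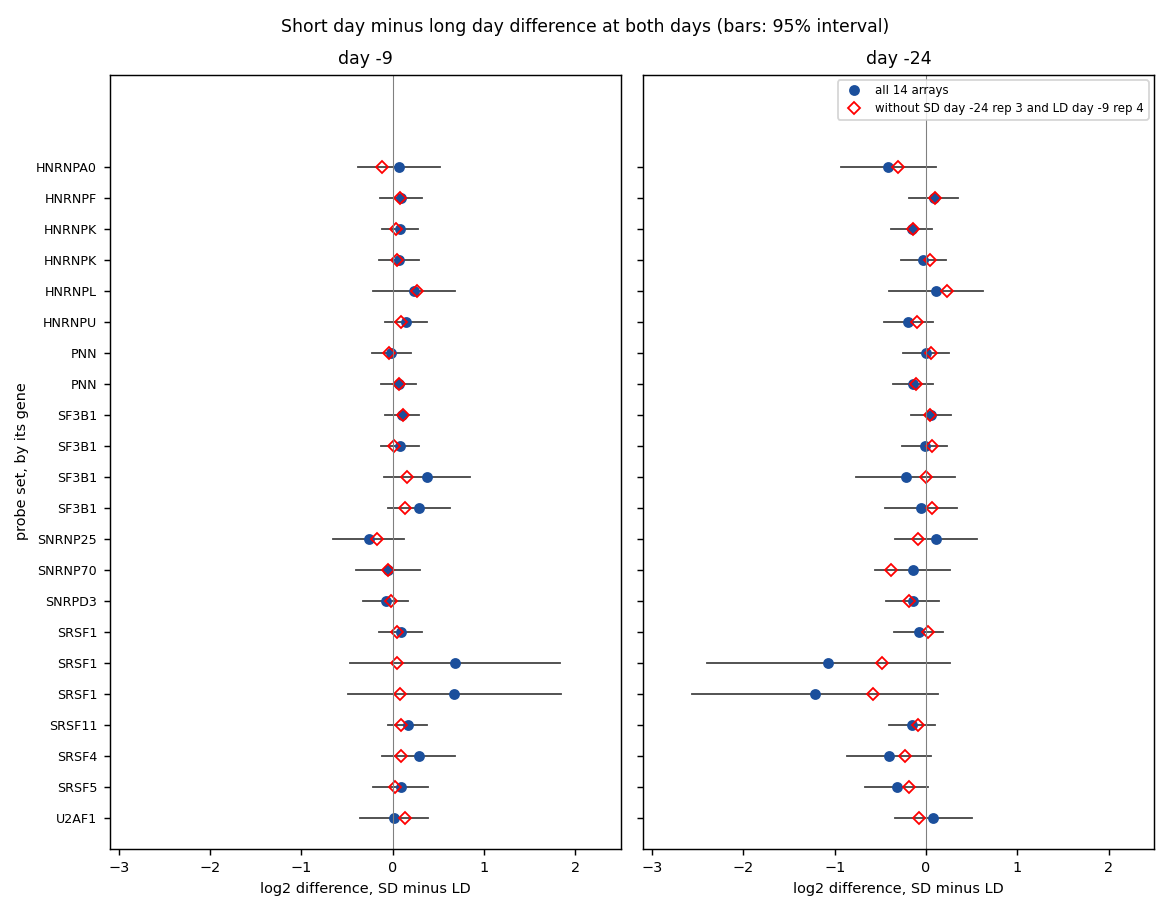
SD minus LD difference (log2, horizontal axis) of 22 named probe sets at day -9 (left) and day -24 (right), with bars for the 95% interval over all 14 arrays; open red diamonds give the difference without SD day -24 replicate 3 and LD day -9 replicate 4. Every interval crosses 0, and the SRSF1 points at 0.67 and -1.22 move to 0.08 and -0.59 without the 2 arrays.

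The interaction asks whether the day difference differed between SD and LD cows. It was positive, that is, higher in SD, for 51 of the 74 and negative for 23, with a median of 0.10, while 52.1% of all probe sets were negative. No splicing factor passed the adjusted threshold (0% of all probe sets did), with 0.900 as the smallest adjusted p. At an unadjusted p under 0.05, 2 were positive (2.7%, against 2.49% of all), which is near the share of the whole array, and none were negative (1.66% of all). These were SRSF4 on Bt.28464.2.S1_at, an SR protein of nuclear speckles, at 0.69 (0.08 to 1.31), and SRSF1 on Bt.864.2.S1_at at 1.89 (0.11 to 3.68). They read 0.32 and 0.66 without the 2 arrays that stood apart, and no splicing factor then had an unadjusted p under 0.05 (1.15% of all were positive and 0.804% negative at that p). Among single arrays left out, the count was likewise 0 for replicate 3 of SD or of LD at day -24 (1.02% and 2.65% of all). It was 1 (1.35%, against 1.77% to 2.37%) for any of 5 arrays, namely LD day -24 replicates 1 and 2, LD day -9 replicate 4 and SD day -9 replicates 3 and 4. It was 4 (5.41%, against 3.54%) for LD day -9 replicate 3. For SD day -24 it was 5 (6.76%, against 3.74%) when replicate 2 and 6 (8.11%, against 3.69%) when replicate 1 was left out. The SRSF4 probe set read 9.23, 9.11, 9.17 and 9.26 in SD at day -9, 8.91, 9.25, 9.16 and 8.31 in LD at day -9, 8.92, 9.07 and 8.47 in SD at day -24, and 9.16, 9.26 and 9.27 in LD at day -24. Its lowest values are those of the 2 arrays. The next smallest p belonged to SRSF1 on Bt.864.2.S1_a_at at 1.75, HNRNPU at 0.34, SRSF11 on Bt.9041.1.S1_at at 0.31 and SRSF5 at 0.41, which were 0.53, 0.19, 0.18 and 0.20 without the 2 arrays.

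For 16 of the 50 genes more than 1 probe set was present, 40 probe sets in all, which form 33 pairs within a gene. Over the 14 arrays the Pearson correlation of these pairs ran between -0.31 and 0.96 with a median of 0.49, and 7 pairs were below 0. Over the 12 arrays without the 2 that stood apart the median was 0.28 and 11 pairs were below 0. These correlations are descriptions, since the pairs share arrays and normalisation. HNRNPLL, known for its part in the splicing of CD45 in T cells, had the 3 pairs most alike over 12 arrays, with 0.94, 0.90 and 0.84, and had 0.92, 0.91 and 0.85 over 14. Its probe set Bt.18908.1.S1_at read 8.79, 8.42, 8.64 and 9.71 in SD at day -9, 8.81, 8.86, 9.03 and 8.33 in LD at day -9, 9.03, 8.20 and 8.01 in SD at day -24, and 9.32, 8.62 and 7.61 in LD at day -24. The groups overlap widely, and the spread lies between arrays of 1 group, the widest being in LD at day -24. The list of T and NK cell markers is given for comparison further on.

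Over 14 arrays the highest values were those of SRSF1 and HNRNPL. The SRSF1 pair on Bt.864.2 had 0.96 over 14 arrays and 0.64 over 12, and the SRSF4 pair 0.68 and -0.04. The 2 HNRNPL probe sets on Bt.21801 had 0.95 and 0.80, while the third, Bt.25701.1.A1_at, had 0.03 and -0.05 with them over 14 arrays and -0.66 and -0.64 over 12. The PNN pair had 0.70 and 0.69, and the SNRNP35 pair 0.79 and 0.74. For HNRNPUL1, Bt.21035.1.S1_at had -0.24 and -0.31 with the other probe sets of that gene.

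In the day difference averaged over photoperiods, the probe sets of a gene all had the same sign for 9 of the 16 genes, with a median spread within a gene of 0.16. The spread was least for SF3B6 (0.01), SRSF4 (0.03), SNRNP35 (0.04), SNRPD3 (0.06) and HNRNPK (0.08). It was greatest for HNRNPL (0.48, between -0.02 and 0.45), HNRNPA0 (0.47, between -0.30 and 0.16), SRSF1 (0.45, between -0.27 and 0.18), SRSF11 (0.36, between -0.15 and 0.21) and HNRNPLL (0.34, between 0.02 and 0.36). The values of 0.16 for HNRNPA0 and 0.21 for SRSF11 are those of dim probe sets. A small spread did not mean that probe sets moved together across arrays. Over 14 arrays the SF3B6 pair had a Pearson r of 0.15 and the SNRPD3 pair, which holds a dim probe set, 0.12. The SF3B6 probe set Bt.19500.2.A1_at was not counted as dim but averaged 4.54 on the 12 arrays, close to the limit of 4.47. The median r was 0.18 for pairs with a dim probe set and 0.58 for the others. The signs within a gene were the same for 12 of 16 genes in LD, 9 in SD, 12 for SD minus LD at day -9 and 8 at day -24. For SRSF1 and HNRNPA0, 1 probe set was therefore lower at day -9 at an unadjusted p under 0.05 while another had a difference above 0.

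Other genes of splicing were taken from 6 lists, 130 genes with 211 probe sets. In the day comparison averaged over photoperiods, 8 were higher (3.79%, against 3.64% of all) and 13 lower (6.16%, against 4.08%) at an unadjusted p under 0.05 and none passed the adjusted threshold; the median was 0.03. Without the 2 arrays that stood apart 15 were higher (7.11%, against 4.08%) and 19 lower (9%, against 4.81%). Other core spliceosome proteins (38 genes, 57 probe sets) had 44 above 0 and a median of 0.09, with PRPF38A at -0.43, SUGP1 at 0.36 and PRPF3 at 0.16 of smallest p. SR-related and other splicing regulators (46 genes, 82 probe sets) had 2 higher and 9 lower, among them RBM39 at -0.26, ZRANB2 at -0.28 and the cold-inducible RBM3 at -0.35. The SR protein kinases and phosphatases (11 genes, 17 probe sets) had 1 in each direction: the kinase CLK3 at 0.46 and the phosphatase subunit PPP1CC at -0.15, followed by PPP1CB at -0.15.

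The LSM proteins (11 genes, 13 probe sets), which form rings like the Sm proteins, had a median of -0.08, with LSM4 at -0.25, LSM10 at 0.17 and LSM6 at -0.10. Genes of snRNP assembly (13 genes, 26 probe sets) had a median of -0.02, with GEMIN8 at 0.26, COIL at -0.17 and GEMIN6 at -0.17. Those of the exon junction complex and mRNA export (11 genes, 16 probe sets) had -0.03, with MAGOHB at -0.44 and -0.34 and THOC6 at 0.18. In the interaction, 17 of the 211 were positive (8.06%, against 2.49% of all) and 1 negative (0.474%, against 1.66%) at an unadjusted p under 0.05, 12 of the 17 being SR-related and other regulators. The mean level of that list was lowest on the arrays that stood apart, at -0.23 in LD day -9 replicate 4 and, next lowest, -0.19 in SD day -24 replicate 3. Without these arrays 3 of the 211 were positive (1.42%, against 1.15%), 1 of them an SR-related or other regulator, and none negative (0.804%). The interaction differences that follow come from the fit on all arrays and are not given without the arrays that stood apart. In that fit the smallest p values belonged to PRPF39 at 0.78, THOC2 at 1.29, FUBP1 at 0.75 and U2SURP at 0.65 and 1.06. The others of smallest p in their lists were SART1 at 0.50, TXNL4A at -0.41, CASC3 at 0.57, THOC5 at -0.32, LSM14A at 0.73 and 0.46, LSM5 at 0.36, SNUPN at -0.45, SMNDC1 at 1.20, GEMIN8 at -0.40 and PPP1CB at 1.29, 0.58 and 0.24.

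Several measures stand beside the day differences above. Genes of the cell cycle (27 genes, 37 probe sets) had a median day difference of -0.29 averaged over photoperiods, with 36 of 37 below 0, made up of -0.68 in SD and 0.18 in LD. Their mean level ran between -1.41 and 0.23 in SD at day -9, -0.16 and 0.28 in LD at day -9, -0.30 and 0.68 in SD at day -24, and -0.24 and 0.14 in LD at day -24. The -1.41 was that of SD day -9 replicate 1, while the rest of its group lay at -0.27 or above. That array also had the highest level of all 14 for myoepithelial (0.69) and luminal epithelial markers (0.45). Its part in the medians of the lists given here was not tested. With the cell cycle level as a covariate in the limma fit, 14 splicing factor probe sets were lower (18.9%, against 4.38% of all) and 2 higher (2.7%, against 3.71%) at an unadjusted p under 0.05. Medians of the day difference were 0.28 for myoepithelial markers (9 of 11 above 0), 0.28 for adipocyte markers (9 of 13), 0.03 for luminal epithelial markers (9 of 13), -0.01 for fibroblast and matrix markers (7 of 20), 0.08 for endothelial markers (14 of 17), -0.06 for T and NK cell markers (6 of 19), -0.26 for B and plasma cell markers (2 of 7), -0.01 for macrophage and dendritic markers (7 of 15), 0.21 for neutrophil markers (6 of 9) and 0.07 for milk proteins (6 of 8). In the interaction the cell cycle genes had a median of -0.81 (33 of 37 below 0), neutrophil markers -0.34 (7 of 9 below 0), macrophage and dendritic markers -0.17 (11 of 15 below 0) and milk proteins 0.19 (8 of 8 above 0), and the medians of the other marker lists lay between -0.15 and 0.15. As a sign of RNA quality, the signal at the 3′ end minus that at the 5′ end of GAPDH was 1.39 ± 0.08 at day -9 (SD, 8 arrays) and 1.58 ± 0.17 at day -24 (SD, 6 arrays), and the day differences of the other control transcripts ran between -0.47 and 0.02. The part of these cell types and of RNA quality in the splicing factor differences was not tested.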

How the data were processed

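The authors deposited log2 probe set signals of 14 Affymetrix arrays, summarised by RMA (background correction, quantile normalisation and median polish) per the submitters' processing notes, which give no version. RMA brings the arrays to a common distribution, so that a change shared by most transcripts would not show, and the values give no read depth; the number of arrays limits the precision. From these values, the 112 control probe sets were left out and the other 24016 were fitted with limma 3.58.1 in R 4.3.3 as means of 4 groups over all 14 arrays. 7 contrasts were tested two-sided, with the Benjamini-Hochberg adjustment taken over the 24016 probe sets and a threshold of 0.05. Arrays were grouped by the labels' photoperiod and day. Gene symbols came from the platform annotation, and for 73 of the 74 splicing factor probe sets the Entrez identifier led to the same symbol in the RefSeq table.

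The named probe sets were, in each contrast, the 6 of smallest unadjusted p, as no splicing factor passed the adjusted threshold. PNN, U2AF1, SF3B1, SNRNP70, SRSF1 and HNRNPK were always named, as were the 5 genes whose probe sets differed most and least in the day difference and, of each list of other splicing genes, the 3 probe sets of smallest p. The splicing factors, the lists and the 2 arrays that stood apart were chosen with earlier results of these data known. The alternatives were a filter on low signal, an intensity trend, a robust prior, array weights, a second quantile normalisation, centring, leaving out arrays singly and together, the replicate number as a block, 1 probe set per gene, omission of probe sets that may cross-hybridise, the cell cycle level as a covariate, and a fit on the compared groups alone. The fit was tested on simulated data.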

Additional observations from a re-analysis of the deposited data

Results flagged for a closer look

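In groups of 4 arrays, 15 of 96 sets of values held 1 array whose gap to the nearest of the others exceeded Dixon's critical value. For a single set chance alone gives about 1 in 20. The 96 sets share the same arrays and most were named by values of these data, so no excess over chance is read from the count. SD day -9 replicate 1 gave 6 of the 15, and LD day -9 replicate 4, set apart before, gave 5. In SD at day -9, replicate 1 was the lowest for HNRNPA0 (Bt.6493.1.S1_at, 9.93, the others at 10.19 or more), U2AF1 (8.55, the others at 8.89 or more), SRSF1 (Bt.864.1.A1_at, 9.39) and SRSF10 (10.56, the others at 10.76 or more). The mean level of the SF3 and U2AF class (-0.16, the others at 0.08 or more) and that of snRNP proteins (-0.22, the others at 0.03 or more) were lowest on it as well. In the same group replicate 4 was highest for HNRNPH2 (9.18) and lowest for SF3B1 on Bt.10359.1.S1_at (11.46), and replicate 2 was lowest for HNRNPR (10.65).

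In LD at day -9, replicate 4 was the lowest for HNRNPL (Bt.21801.2.S1_at, 7.01, the others at 9.95 or more), SRSF1 (Bt.864.2.S1_a_at, 5.58, the others at 7.94 or more), SF3B6 (Bt.19500.1.S1_at, 10.17, the others at 11.07 or more), SRSF4 (Bt.28464.1.S1_at, 10.15) and the dim SRSF11 probe set Bt.16306.1.A1_at (2.66). Replicate 1 of that group was lowest for the mean level of SF3 and U2AF (-0.10). The groups of 3 arrays at day -24 were not tested in this way.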

How the results depend on the processing

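Across all alternatives no splicing factor passed the adjusted threshold in any of the 7 comparisons. Over the whole array the count past 0.05, which was 0 in each comparison, was 2 in the day comparison averaged over photoperiods when only probe sets at or above the median mean signal were tested, a smaller number of tests. For the day comparison in SD it was 1 without the 2 arrays that stood apart and 1 without 4 arrays, which were these 2, LD day -24 replicate 1 and SD day -9 replicate 1; with single arrays left out it ran between 0 and 1, the 1 being without SD day -24 replicate 3. For SD minus LD averaged over days it likewise ran between 0 and 1, the 1 being without SD day -9 replicate 3. The omissions that involve LD day -24 replicate 1 with the SD array named beside it were chosen after seeing the data. Of 2234 values of 84 named results, 2141 kept their direction and 93 changed sign, 61 of them with 1 array left out. The cause was not tested. Means of 3 or 4 arrays a group limit the precision, and 4 of the probe sets were dim.

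With the replicate number as a block, the day comparison averaged over photoperiods had 10 lower (13.5%, against 3.38% of all) and 2 higher (2.7%, against 3.00%) splicing factor probe sets at an unadjusted p under 0.05, and that in LD had 9 lower (12.2%, against 3.04%). Same-numbered arrays of different groups correlated in their deviations between -0.34 and 0.33 over 19 pairs (median 0.10, with 9 over 0.1). The median over other pairs was -0.06. Same-numbered SD and LD arrays, which the block also joined, cannot come from 1 cow. Within a photoperiod the same-numbered pairs had 0.33, 0.19 and -0.31 in LD and 0.04, 0.22 and 0.25 in SD. These values do not settle whether a number stands for 1 cow, and the labels do not say. The main fit therefore had no block. The LD count of 16 was 8 (10.8%, against 2.67%) without LD day -24 replicate 1 and the SD array named with it, 7 (9.46%, against 4.05%) without the 4 arrays, 18 (24.3%, against 3.96%) with an intensity trend and 11 (14.9%, against 2.71%) with only the compared groups. In the interaction 6 (8.11%, against 2.46%) were positive with an intensity trend and 0 (1.47% of all) with the cell cycle level as a covariate.

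For SD minus LD averaged over days, these values changed sign. PNN (Bt.22769.1.S1_at) had 0.00019 with array weights, 0.0091 without the 2 arrays that stood apart, 0.0093 without the 2 named after them and 0.026 without all 4. SRSF1 (Bt.864.1.A1_at) had -0.00029 after another quantile normalisation and -0.0016 after centring.

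For day -9 minus day -24 averaged over photoperiods, centring gave -0.0048 for SF3B1 (Bt.13529.1.S1_at), -0.023 for HNRNPLL (Bt.13239.1.A1_at), -0.028 for SNRPD3 (Bt.28460.1.S1_at) and -0.020 for SRSF4 (Bt.28464.2.S1_at). Array weights gave 0.029 for SRSF1 (Bt.864.2.S1_a_at), 0.13 for HNRNPL (Bt.25701.1.A1_at), -0.013 for SNRPD3 and 0.0074 for SRSF4 (Bt.28464.1.S1_at), and another quantile normalisation gave 0.0038 for Bt.28464.1.S1_at. Without the 2 arrays that stood apart SRSF1 (Bt.864.2.S1_a_at) had 0.011, HNRNPLL -0.034 and SRSF11 (Bt.16306.1.A1_at) 0.16. The block gave 0.25 for SRSF1 (Bt.864.2.S1_a_at), -0.039 for HNRNPLL, 0.019 for SRSF11, 0.051 for SF3B6 (Bt.19500.1.S1_at), 0.0074 for HNRNPL (Bt.25701.1.A1_at) and 0.048 for SRSF4 (Bt.28464.1.S1_at). Without the 2 arrays named after them HNRNPL (Bt.25701.1.A1_at) had 0.16 and SNRPD3 -0.0092. Without all 4 SRSF1 (Bt.864.2.S1_a_at) had 0.0087, SRSF11 0.089, HNRNPL (Bt.25701.1.A1_at) 0.088 and SNRPD3 -0.017. The cell cycle covariate gave 0.014 for SRSF4 on Bt.28464.1.S1_at and -0.025 on Bt.28464.2.S1_at.

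With single arrays left out, SD minus LD averaged over days ran between -0.055 and 0.021 for PNN (Bt.22769.1.S1_at), -0.035 and 0.12 for U2AF1, -0.034 and 0.19 for SF3B1 (Bt.27429.1.S1_at) and -0.021 and 0.056 for HNRNPK (Bt.3183.3.A1_at). For SRSF1 it ran between -0.041 and 0.054 on Bt.864.1.A1_at, -0.51 and 0.098 on Bt.864.2.S1_a_at, and -0.57 and 0.043 on Bt.864.2.S1_at. The day difference averaged over photoperiods ran between -0.033 and 0.19 for SF3B1 on Bt.27429.1.S1_at and -0.016 and 0.12 on Bt.27429.2.A1_at, and between -0.31 and 0.30 for SRSF1 on Bt.864.2.S1_a_at and -0.14 and 0.48 on Bt.864.2.S1_at. It ran between -0.070 and 0.16 for HNRNPLL (Bt.13239.1.A1_at), -0.23 and 0.067 for SRSF11 (Bt.16306.1.A1_at), -0.24 and 0.051 for SF3B6 on Bt.19500.1.S1_at and -0.16 and 0.026 on Bt.19500.2.A1_at. The range was -0.27 to 0.56 for HNRNPL on Bt.21801.2.S1_at and -0.12 to 0.14 on Bt.25701.1.A1_at, -0.024 to 0.057 for SNRPD3 (Bt.28460.1.S1_at), and -0.056 to 0.045 for SRSF4 on Bt.28464.1.S1_at and -0.064 to 0.12 on Bt.28464.2.S1_at.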
